A study of Homo sapiens with 12 samples.

Results

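Thyroid hormone handling was followed through 8 genes of the count table. They are the deiodinases *DIO1*, *DIO2* and *DIO3*, the transporter *SLC16A10*, the receptors *THRA* and *THRB*, the receptor partner *RXRA* and the response gene *KLF9*. The genes were taken by name from the 57187 genes counted, and 6 of the 8 passed the filter on low counts that left 17211 genes for testing. *DIO2* was chosen by its higher counts in *SIVA-D160N* than in EV, so its values by condition are a description without a test. The other genes were added as its pathway. These genes and the lists below were picked with earlier results of these data known. Their p-values and shares are therefore not free of that choice. *DIO1* and *DIO3* did not pass the filter and are given as counts.

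The study made 12 RNA-seq libraries from 4 human cancer cell lines, with 1 library for each line and condition. The breast lines were HCC1954 and MDA-MB-231, and the ovarian lines were SKOV3 and OVCAR8. Each line was measured as a control (EV), which the labels call parental with no treatment and the study describes as carrying an empty vector, and after stable transfection with wild-type *SIVA* (*SIVA-WT*) or with *SIVA* carrying the D160N change (*SIVA-D160N*). *SIVA1* encodes a protein first known as a partner of the CD27 receptor in cell death signaling. All libraries came from cells grown in RPMI-1640 with fetal bovine serum, which itself brings thyroid hormone, and the labels give hygromycin selection after a vector driven into the cells by lipid transfection. Nothing says that a condition was made more than once in a line, so the 4 lines are the replicates of a condition, and the 3 libraries of a line are its 3 conditions.

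Thyroid hormone circulates mostly as the prohormone thyroxine (T4). Cells take it up through transporters, and deiodinases, which are selenoproteins, remove iodine from it: DIO2 makes the active hormone T3 from T4, DIO3 inactivates both, and DIO1 can do either. T3 acts through the nuclear receptors encoded by *THRA* and *THRB*, which bind DNA mostly together with a retinoid X receptor such as that of *RXRA*, and *KLF9* is a transcription factor gene that T3 induces in many cells.

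Total counts per library ran from 35791455 to 45890398. With 3 counts as the limit of detection, a gene without counts could still be present at up to 0.0654 to 0.0838 CPM, depending on the library. This limit and the intervals below cover counting error only. CPM values are counts scaled to a common library size with TMM, a correction for library composition, and serve to compare libraries for 1 gene, not genes with each other, since they are not divided by transcript length. *SIVA1* was higher in both transfected libraries than in EV of every line, but the HCC1954 library labelled EV held 0 *SIVA1* counts, against 1272 to 2419 in the EV libraries of the other lines. Log2 fold changes in *SIVA-D160N* vs EV are therefore also given without HCC1954. Counts of the leukocyte markers *PTPRC*, *CD3E* and *CD68* summed to at most 0.697 CPM in any library. *PECAM1*, an endothelial marker, had 32.6 to 62.8 CPM in HCC1954 and at most 1.81 CPM in the other lines, and with *VWF* it was lower in *SIVA-D160N* than in EV in 4 of 4 lines (-1.19 ± 0.40, adjusted p = 0.241, and -0.95 ± 0.28, adjusted p = 0.209, in edgeR). In SKOV3 this direction rests on 2 counts against 4 for *PECAM1* and on 0 counts against 1 for *VWF*. The fibroblast markers *COL1A1* and *DCN* summed to 24.0, 407 and 504 CPM in EV, *SIVA-WT* and *SIVA-D160N* of SKOV3 and to 340, 257 and 187 CPM in OVCAR8. Nearly all of this was *COL1A1*, as *DCN* had at most 0.369 CPM in SKOV3 and 0 counts in OVCAR8. The mesenchymal markers *VIM* and *ZEB1* summed to 95.8, 161 and 292 CPM in EV, *SIVA-WT* and *SIVA-D160N* of HCC1954, the order of *DIO2* in that line, and to 2961 to 4040 CPM in the other lines. The Mullerian markers *PAX8*, *WT1* and *MUC16* summed to 76.4, 82.8 and 124 CPM in HCC1954 in the same order. Most of this was *MUC16*, at 66.1 to 115 CPM, as *PAX8* had at most 2.63 CPM and *WT1* at most 8.06 CPM there. From EV through *SIVA-WT* to *SIVA-D160N* the Mullerian sum also rose in SKOV3. It fell in OVCAR8 (83.2, 73.2 and 67.6 CPM) and in MDA-MB-231 (3.45, 3.01 and 2.48 CPM). Of the 5 epithelial markers 0 were called by edgeR in *SIVA-D160N* vs EV, and the keratin gene *KRT19* was lower in 4 of 4 lines (-0.77 ± 0.17, edgeR, adjusted p = 0.148), in OVCAR8 by 0 counts against 1. The part of such cells or markers in the results was not tested. In bulk RNA, fewer cells that express a gene and less of its RNA per cell cannot be told apart.

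*DIO2* lies on chromosome 14 (80197526 to 80231057, GRCh38.p14, minus strand). RefSeq gives 2 start windows for it, which are shown because *DIO2* is the gene the set was built on. Each is 300 bases long, runs 5′ to 3′ across a start, and has matches to the searched motifs in capitals. Both windows lie inside the interval given above. Neither covers its 5′ end at base 80231057, which was not searched.
DIO2 upstream window, chr14:80212129-80212428, minus strand: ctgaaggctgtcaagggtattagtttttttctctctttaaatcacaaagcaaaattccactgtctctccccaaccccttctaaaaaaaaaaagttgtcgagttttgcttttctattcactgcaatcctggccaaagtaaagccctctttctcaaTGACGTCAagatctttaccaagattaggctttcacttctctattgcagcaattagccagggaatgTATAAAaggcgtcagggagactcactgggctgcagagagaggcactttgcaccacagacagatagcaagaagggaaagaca
DIO2 downstream window, chr14:80211455-80211754, minus strand: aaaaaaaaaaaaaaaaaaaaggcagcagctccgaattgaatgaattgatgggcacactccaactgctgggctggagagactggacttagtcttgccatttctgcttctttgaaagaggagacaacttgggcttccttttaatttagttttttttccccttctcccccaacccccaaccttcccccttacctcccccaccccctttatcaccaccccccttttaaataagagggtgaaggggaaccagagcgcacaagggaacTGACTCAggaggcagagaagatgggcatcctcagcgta

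The motifs were searched on both strands of all 35116 promoter windows of the RefSeq table. The upstream window of *DIO2* held the cAMP response element TGACGTCA, 96 bases before the start, which 1.85% of all windows hold. It also held a TATA box (TATAAA) 31 bases before the start, found in 11.5% of windows. The downstream window held the AP-1 site TGACTCA, 12 bases after the start, found in 4.95% of windows. A match is a description of the letters and no proof of a bound site. The direct repeat form of the thyroid hormone response element (half-sites with 4 bases between them) was in none of the 11 windows of the 8 genes and in 0.0199% of all windows. The other matches among these 11 windows were TATA boxes of *DIO3* and of 1 of the 2 *THRB* windows.

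*DIO2*, which encodes the activating deiodinase, was expressed in HCC1954 and SKOV3 and was nearly absent from the other lines. In HCC1954, EV had 35.5 CPM, *SIVA-WT* 101 CPM and *SIVA-D160N* 169 CPM. In SKOV3 the levels were 15.4, 84.8 and 129 CPM in the same order. In OVCAR8 they were 0.137, 0.315 and 0.262 CPM, from 5, 12 and 10 counts, and in MDA-MB-231 0.0664, 0.101 and 0.0729 CPM, from 3, 4 and 3 counts. Within HCC1954 and SKOV3 alike, EV was lowest and *SIVA-D160N* highest, whereas the counts of MDA-MB-231 lay near the limit of detection. The lowest library of the expressing lines, SKOV3 EV, was far above the highest library of the other lines.

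**Figure D1:**
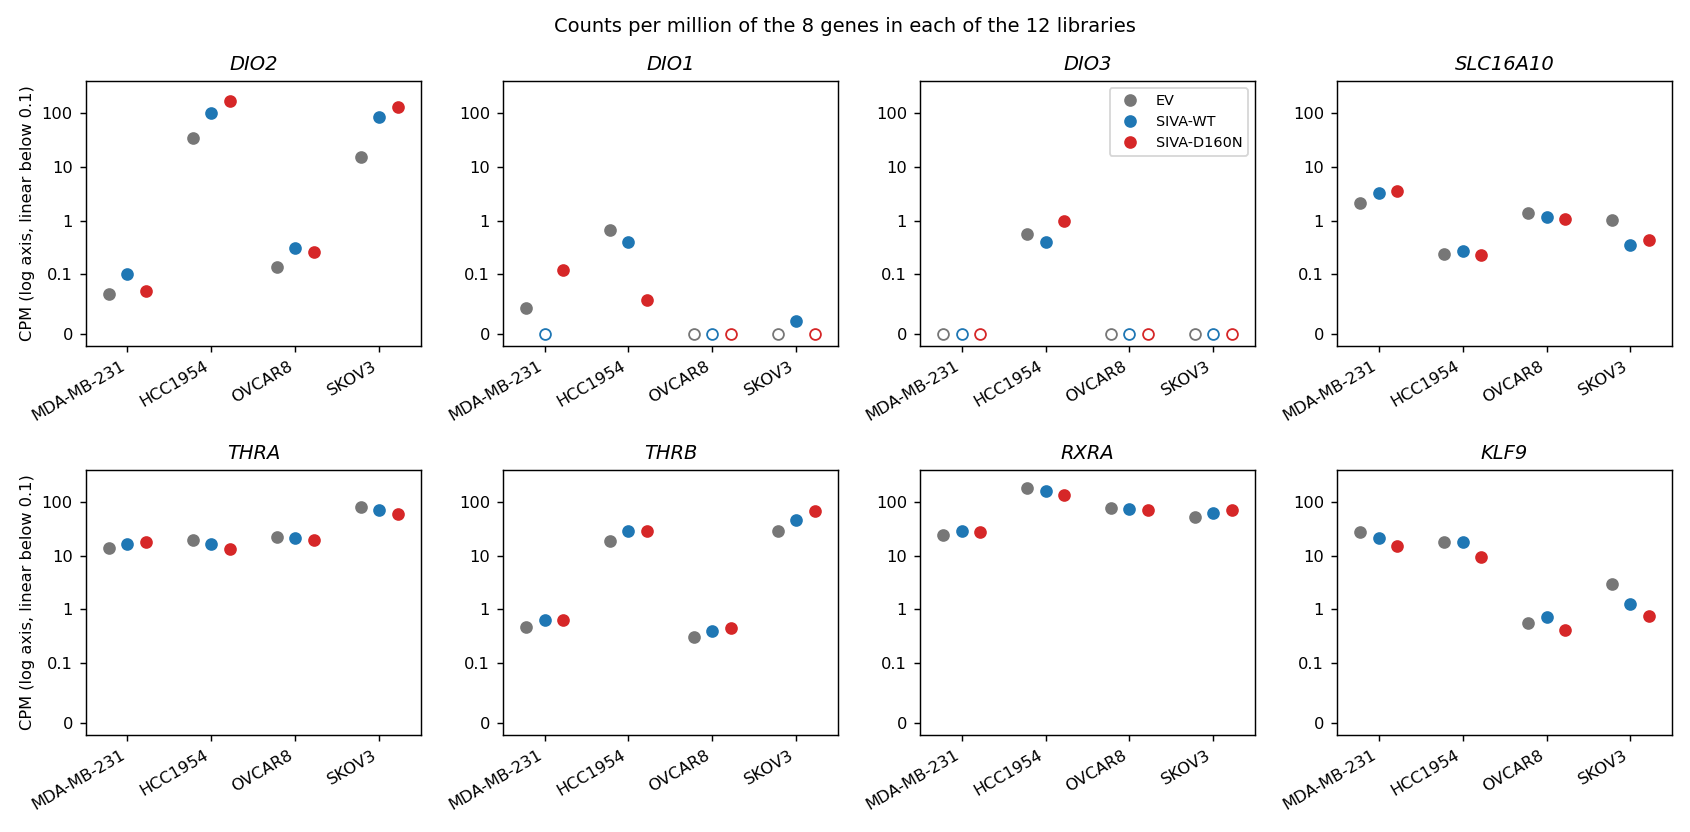
CPM values (log axis, linear below 0.1) of the 8 genes in the 12 libraries, by cell line, with EV in gray, *SIVA-WT* in blue and *SIVA-D160N* in red, and open circles for 0 counts. *DIO2* and *THRB* are high in HCC1954 and SKOV3 and low in MDA-MB-231 and OVCAR8, and *DIO3* has counts in HCC1954 only.

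In the edgeR fit over 4 lines, with line and condition as terms, *DIO2* had a log2 fold change of 2.49 ± 0.25 (SE) in *SIVA-D160N* vs EV. This is the difference by which it was selected. Each SE given is that of the fit and not the spread between lines, which for *DIO2* was wide. The fitted value of *SIVA-WT* vs EV was 1.92 ± 0.25, whereas *SIVA-D160N* exceeded *SIVA-WT* by 0.57 ± 0.23. These contrasts share libraries and are not independent of one another. Within SKOV3 the ratio of *SIVA-D160N* to EV was 8.37 (95% exact counting interval 7.68 to 9.13), and that of *SIVA-WT* to EV was 5.49. Within HCC1954 the corresponding ratios were 4.76 (4.50 to 5.05) and 2.84. For *SIVA-D160N* against EV the ratio was 1.91 (0.594 to 7.12) in OVCAR8 and 1.10 (0.147 to 8.20) in MDA-MB-231. Both intervals include no difference, so a change could not be detected at the depth of these 2 lines. Without HCC1954 the fitted value in *SIVA-D160N* vs EV was 2.75, and without SKOV3 it was 2.02. For *SIVA-WT* vs EV it was 2.33 without HCC1954 and 1.48 without SKOV3. *DIO2-AS1*, which overlaps *DIO2*, had at most 2 counts in any library.

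The other deiodinases were rare. *DIO1* (chromosome 1, 53894187 to 53911086) had 28, 17 and 2 counts in EV, *SIVA-WT* and *SIVA-D160N* of HCC1954, 2, 0 and 5 counts in MDA-MB-231, 1 count in SKOV3 *SIVA-WT* and 0 counts in the 5 remaining libraries. Within HCC1954 the *DIO1* ratio of *SIVA-D160N* to EV was 0.0850 (0.00981 to 0.337), which rests on 1 library each. *DIO3* (chromosome 14, 101561495 to 101563452), the inactivating deiodinase, had 24, 17 and 34 counts in the same order in HCC1954 and 0 counts in all 9 libraries of the other lines. Its neighbor *DIO3OS* had 12, 47 and 29 counts in HCC1954 and 0 elsewhere. HCC1954 was thus the line with counts of all 3 deiodinases in every condition. The 2 counts of *DIO1* in its *SIVA-D160N* library lie under the limit of 3 counts.

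*THRB* (chromosome 3, 24117153 to 24495708), the receptor that mediates feedback of T3 in the pituitary and its action in liver, shared with *DIO2* the split of the lines. In SKOV3, EV had 28.3 CPM, *SIVA-WT* 45.4 CPM and *SIVA-D160N* 66.9 CPM. In HCC1954 the levels were 18.8, 28.3 and 28.8 CPM in that order. In MDA-MB-231 they were 0.464, 0.632 and 0.632 CPM, and in OVCAR8 0.302, 0.394 and 0.445 CPM. EV was the lowest library in each of the 4 lines, and the ranges of the 2 pairs of lines did not overlap.

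*THRB* had a log2 fold change of 0.83 ± 0.15 (SE) in *SIVA-D160N* vs EV, with a higher level in 4 of 4 lines, although the counting intervals of MDA-MB-231 and OVCAR8 include no difference. Its Benjamini-Hochberg adjusted p of 0.128 in edgeR did not pass the threshold of 0.05 (unadjusted p = 0.000199). The value was 0.59 ± 0.15 in *SIVA-WT* vs EV (edgeR, adjusted p = 1.00) and 0.24 ± 0.15 in *SIVA-D160N* vs *SIVA-WT* (adjusted p = 0.773). DESeq2 gave *THRB* an adjusted p of 0.00562 and limma-voom one of 0.0328 in *SIVA-D160N* vs EV, with a size below the threshold of 1.5 on the log2 scale. Over all alternatives the adjusted p ran from 0.00394, with every gene kept, to 1.00 with no replicate block. Without HCC1954 the log2 fold change was 0.96 (edgeR, adjusted p = 0.297). Without SKOV3 it was 0.57, and that of *SIVA-D160N* vs *SIVA-WT* was 0.049, beside 0.37 without HCC1954.

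*KLF9* (chromosome 9, 70384604 to 70414657), the T3-induced transcription factor gene, was lowest in *SIVA-D160N*. In MDA-MB-231, EV had 27.9 CPM, *SIVA-WT* 21.1 CPM and *SIVA-D160N* 15.1 CPM. In HCC1954 the levels were 18.3, 18.3 and 9.48 CPM, and in SKOV3 2.91, 1.28 and 0.763 CPM. In OVCAR8 they were 0.548, 0.736 and 0.419 CPM, from 20, 28 and 16 counts. The *SIVA-D160N* library had the lowest value of each of the 4 lines, and *SIVA-WT* lay below EV in MDA-MB-231 and SKOV3, about level with it in HCC1954 and above it in OVCAR8.

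The log2 fold change of *KLF9* was -1.09 ± 0.23 (SE) in *SIVA-D160N* vs EV, with a lower level in 4 of 4 lines, although the counting interval of OVCAR8 includes no difference, and its adjusted p of 0.136 in edgeR did not pass the threshold (unadjusted p = 0.000557). It was -0.36 ± 0.22 in *SIVA-WT* vs EV (edgeR, adjusted p = 1.00) and -0.73 ± 0.23 in *SIVA-D160N* vs *SIVA-WT* (adjusted p = 0.719). In DESeq2 the adjusted p for *SIVA-D160N* vs EV was 0.00152, again with a size below the threshold, and in limma-voom it was 0.0501. The range over all alternatives was 0.000816 to 1.00, at the same settings as for *THRB*. Without HCC1954 the log2 fold change was -1.13 (edgeR, adjusted p = 0.354). Without SKOV3 it was -0.84, and that of *SIVA-WT* vs EV was -0.095.

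**Figure D2:**
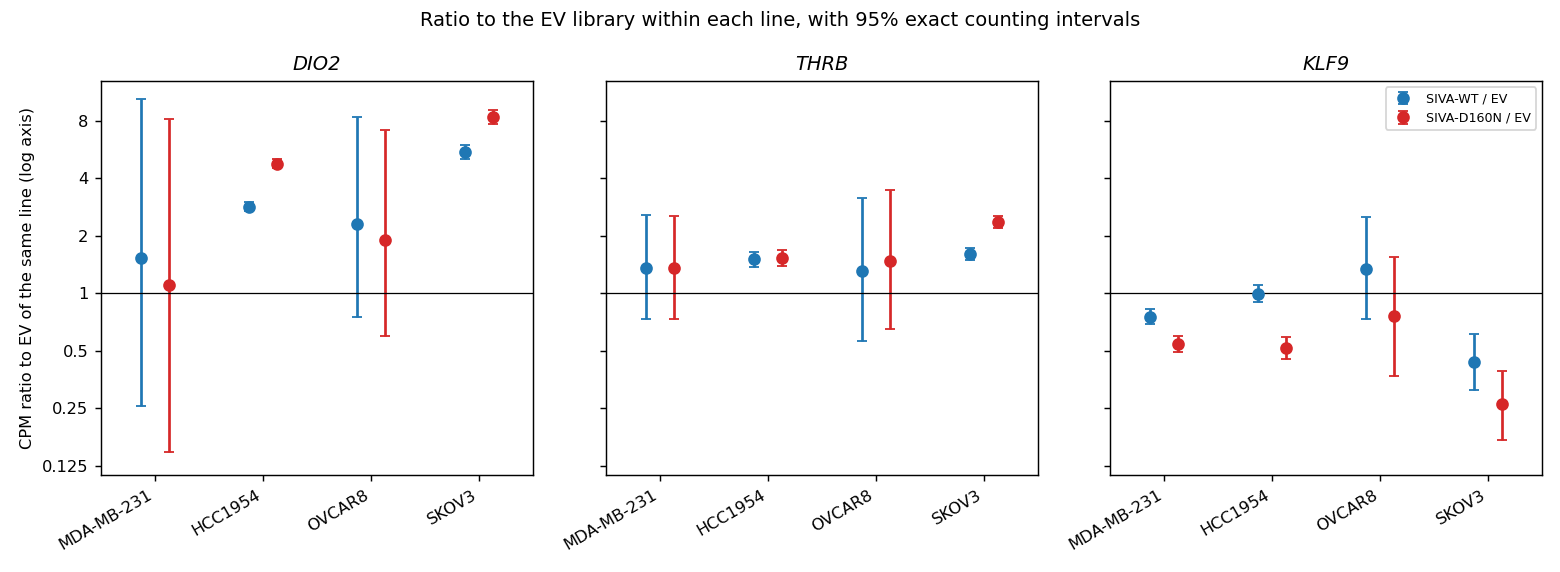
Ratio of CPM to the EV library of the same line (log axis) for *DIO2*, *THRB* and *KLF9*, with *SIVA-WT* in blue, *SIVA-D160N* in red and bars for 95% exact counting intervals. *THRB* in *SIVA-D160N* lies above 1 and *KLF9* below 1 in all 4 lines, but the intervals of *THRB* in MDA-MB-231 (0.736 to 2.54) and OVCAR8 (0.652 to 3.48) and of *KLF9* in OVCAR8 (0.370 to 1.55) include 1.

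*THRA* (chromosome 17, 40062193 to 40093867), the main receptor gene of heart, bone and brain, was highest in SKOV3, where EV had 82.1 CPM, *SIVA-WT* 70.7 CPM and *SIVA-D160N* 59.4 CPM. It had 21.9, 21.4 and 19.6 CPM in OVCAR8, 19.8, 16.6 and 13.4 CPM in HCC1954 and 13.6, 16.4 and 18.2 CPM in MDA-MB-231. HCC1954 overlapped with both OVCAR8 and MDA-MB-231, and EV was the highest library in 3 lines and the lowest in MDA-MB-231. The log2 fold change in *SIVA-D160N* vs EV was -0.20 ± 0.14 (edgeR, adjusted p = 0.544). It was -0.078 without HCC1954, -0.10 without SKOV3 and -0.40 without MDA-MB-231. *THRA* and *NR1D1* run in opposite directions and share 1075 bases at their ends, and whether the counting used strand is not given in the sources used here. In MDA-MB-231, where *THRA* was lowest in EV, *NR1D1* was highest in EV, at 30.5 CPM, while *SIVA-WT* had 14.3 CPM and *SIVA-D160N* 11.2 CPM. In HCC1954 and OVCAR8 *NR1D1* was highest in *SIVA-D160N*, at 9.68 and 4.76 CPM, where *THRA* was lowest. In SKOV3 both genes were highest in EV and lowest in *SIVA-D160N*, with *NR1D1* at 23.9 and 14.9 CPM. The part of the overlap in these values was not tested.

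*RXRA* (chromosome 9, 134326455 to 134440585), the heterodimer partner of both receptors, was highest in HCC1954, where EV had 183 CPM, *SIVA-WT* 161 CPM and *SIVA-D160N* 133 CPM. The levels were 78.7, 75.3 and 72.6 CPM in OVCAR8, 53.3, 62.0 and 70.7 CPM in SKOV3 and 24.3, 28.6 and 28.0 CPM in MDA-MB-231. The 4 ranges did not overlap, and the order of conditions in SKOV3 was the reverse of that in HCC1954. The log2 fold change in *SIVA-D160N* vs EV was 0.0057 ± 0.12 (edgeR, adjusted p = 0.990), and it was 0.16 without HCC1954.

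*SLC16A10* (chromosome 6, 111087503 to 111231194), which encodes the transporter MCT10 for T3 and aromatic amino acids, was highest in MDA-MB-231, where EV had 2.12 CPM, *SIVA-WT* 3.26 CPM and *SIVA-D160N* 3.52 CPM. The levels were 1.37, 1.16 and 1.10 CPM in OVCAR8, 1.03, 0.359 and 0.443 CPM in SKOV3 and 0.240, 0.279 and 0.228 CPM in HCC1954. EV was thus the lowest library in MDA-MB-231 and the highest in both ovarian lines. The fitted log2 fold change in *SIVA-D160N* vs EV was -0.19 ± 0.33 (edgeR, adjusted p = 0.842). It was -0.18 without HCC1954, -0.61 without MDA-MB-231 and 0.19 without SKOV3.

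Of the 5 genes tested other than *DIO2*, 0 passed an edgeR adjusted p under 0.05 with a log2 fold change of at least 1.5 in either direction in *SIVA-D160N* vs EV, where 0.00581% of all genes did. By edgeR that share was 1 gene, *DIO2* itself, which was chosen by this difference, so its passing is no test. DESeq2 took 12 genes and limma-voom 27 at the same thresholds of adjusted p and size, none of the 5 among them. Again 0 of the 5 passed in *SIVA-WT* vs EV, as did 0% of all genes, and the same held for *SIVA-D160N* vs *SIVA-WT* (0%). At an unadjusted p under 0.05 in edgeR, 2 of the 5 passed in *SIVA-D160N* vs EV (*THRB* and *KLF9*), where 14.2% of all genes did. The same threshold took *THRB* alone in *SIVA-WT* vs EV (2.54% of all genes) and *KLF9* alone in *SIVA-D160N* vs *SIVA-WT* (6.88% of all genes). *THRB* was also the 1 gene of the 5 with a higher level in *SIVA-D160N* than in EV in all 4 lines (6.95% of all genes), and *KLF9* the 1 with a lower level in all of them (9.06%). The median log2 fold change of the 5 was -0.19, beside -0.0090 over all genes. Since the 5 were picked with earlier results of these data known, these shares are a description.

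**Figure D3:**
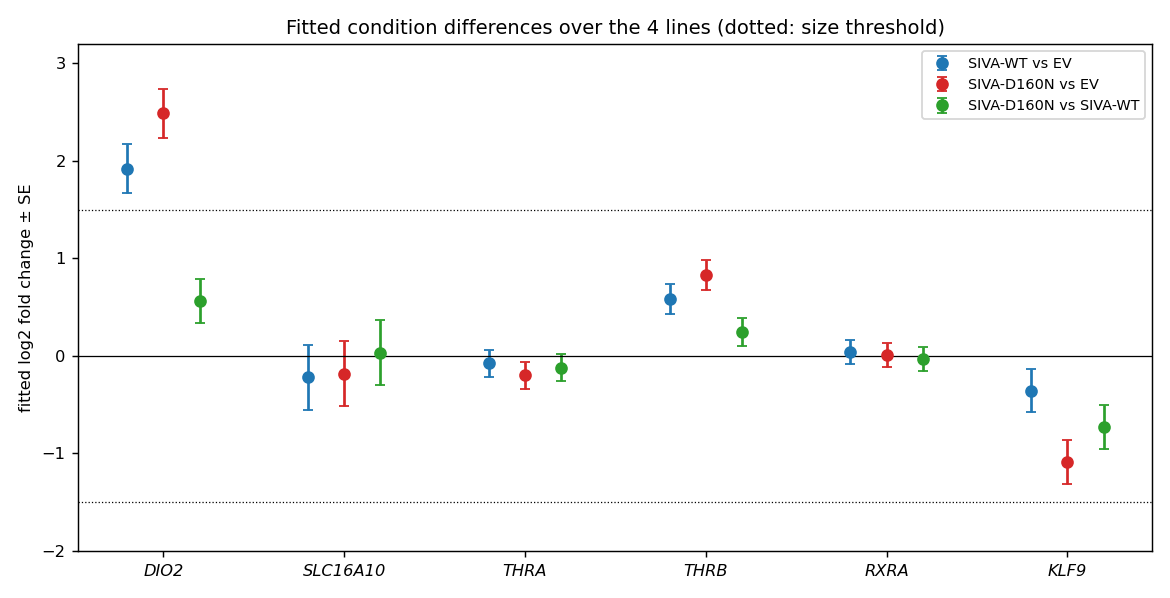
Fitted log2 fold changes over the 4 lines, with the SE of the fit, for the 6 genes that passed the filter. The contrasts are *SIVA-WT* vs EV (blue), *SIVA-D160N* vs EV (red) and *SIVA-D160N* vs *SIVA-WT* (green). The dotted lines mark the size threshold of 1.5, which only *DIO2*, chosen by this difference, exceeds, in both contrasts with EV.

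The response to *SIVA-D160N* was compared between the ovarian and breast lines by an interaction term. Of the 5 genes, 0 passed, where 0.00581% of all genes did. *SLC16A10* had the largest such difference, -1.26 ± 0.55 on the log2 scale as ovarian minus breast, with an adjusted p of 0.976 in edgeR, and was the 1 of the 5 with an unadjusted p under 0.05 (0.0475).

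The lines were also compared with each other, which the choice of *DIO2* did not use. *DIO2* had 3 to 12 counts per library in MDA-MB-231 and OVCAR8 and passed the filter mainly through HCC1954 and SKOV3, so it had to differ between these pairs of lines, and its differences are given as sizes without a p. Leaving *DIO2* out, the genes that passed both thresholds in HCC1954 vs MDA-MB-231 were *THRB*, *RXRA* and *SLC16A10*, where 30.6% of all genes did. In SKOV3 vs MDA-MB-231 they were *THRA*, *THRB*, *KLF9* and *SLC16A10* (27.8% of all genes). *THRB*, *KLF9* and *SLC16A10* passed in OVCAR8 vs HCC1954 (30.6%), and *THRA* and *THRB* in SKOV3 vs OVCAR8 (28.1%). *THRA* and *KLF9* passed in SKOV3 vs HCC1954 (29.3%), and *KLF9* alone in OVCAR8 vs MDA-MB-231 (24.2%). With 3 libraries of 1 line on each side, these tests measure the spread between libraries and not between independent cultures.

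*DIO2* was 10.27 ± 0.37 (SE) higher on the log2 scale in HCC1954 than in MDA-MB-231 and 8.17 ± 0.33 higher in SKOV3 than in OVCAR8. HCC1954 and SKOV3 differed by 0.59 ± 0.20 with overlapping ranges, and OVCAR8 and MDA-MB-231 by 1.52 ± 0.66. *THRB* was 5.45 ± 0.19 higher in HCC1954 than in MDA-MB-231 (edgeR, adjusted p = 1.23e-09) and 6.89 ± 0.21 higher in SKOV3 than in OVCAR8 (adjusted p = 7.38e-10). *KLF9* was lower in OVCAR8 than in MDA-MB-231 by -5.22 ± 0.30 (edgeR, adjusted p = 8.75e-08), and in SKOV3 than in HCC1954 by -3.30 ± 0.26. *THRA* was 1.75 ± 0.16 higher in SKOV3 than in OVCAR8, the next line (edgeR, adjusted p = 2.66e-06), while the steps from OVCAR8 to HCC1954 and on to MDA-MB-231 did not pass (adjusted p = 0.0749 and 0.891). *RXRA* differed by 1.07 ± 0.14 between HCC1954 and OVCAR8 and by 1.20 ± 0.14 between SKOV3 and MDA-MB-231, sizes under the threshold. *SLC16A10* had a log2 fold change of -3.57 ± 0.41 in HCC1954 vs MDA-MB-231, the ends of its order (edgeR, adjusted p = 1.33e-05).

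The lowest of the 6 HCC1954 and SKOV3 libraries exceeded the highest of the 6 other libraries by 5.41 on the log2 CPM scale for *DIO2* and by 4.79 for *THRB*. A gap at least as large as that of *THRB* was found in 40 of the 17211 genes tested (0.232%), and any gap above 0 in 1829. *ERBB2*, the HER2 receptor gene, was one of them with a gap of 6.20. It had 5736 to 9223 CPM in HCC1954, 5964 to 12170 CPM in SKOV3 and 32.1 to 78.1 CPM in the other 2 lines, and copy number was not measured. *ERBB2* was lowest in *SIVA-D160N* in both HCC1954 and SKOV3, where *DIO2* was highest. *ERBB2* lies 334 kb from *THRA* on chromosome 17. Of the 17 genes listed around *THRA* in that region, 16 were tested and 0 called in *SIVA-D160N* vs EV, with 5 at an unadjusted p under 0.05, all lower, beside 14.2% of all genes in either direction. Their median was -0.20, beside -0.0090 over all genes, and 5 of the 16 were lower in all 4 lines, beside 9.06% of all genes. *GRB7* (-0.68 ± 0.23, edgeR, adjusted p = 0.237), *PGAP3* (-0.46 ± 0.13, adjusted p = 0.189) and *GSDMB* (-0.38 ± 0.13, adjusted p = 0.249) had the largest differences of these 5.

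The genes whose log2 CPM ran most like that of *DIO2* over the 12 libraries were *ROS1* (Pearson r = 0.992), *RP11-624L4.1* (0.990), *NPY4R* (0.989), *AC006262.5* (0.984) and *KIAA1522* (0.984), and *THRB* stood 30th of 17211 (0.972). The points share their line in trios and the composition of each library. After each line's mean was subtracted, the closest genes were *KCNH1* (0.983), *ADAMTS5* (0.967), *ADGRG6* (0.961), *GPAM* (0.959) and *NR2E1* (0.958), with *THRB* 17th (0.915) and *KLF9* at -0.763. Several of these genes have few counts, such as *KCNH1* with at most 61 counts in any library outside SKOV3. Since *DIO2* was chosen by condition, the likeness within lines is a description.

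The rest of the pathway was described by lists. Genes given below by their levels alone were picked after their values were seen. The counts are to be read beside the 14.2% of all genes with an unadjusted p under 0.05 in *SIVA-D160N* vs EV and the 6.95% higher and 9.06% lower in all 4 lines. Of the 12 transporter genes, 8 passed the filter and 0 were called by edgeR in *SIVA-D160N* vs EV or had an unadjusted p under 0.05, with a median log2 fold change of -0.14 beside -0.0090 over all genes. The heavy and light chains of the amino acid transporter that also carries thyroid hormone, *SLC3A2* and *SLC7A5*, were high in every library, at 195 to 652 CPM and 254 to 1362 CPM. *SLC10A1* and *SLC17A4* had 0 counts in all libraries.

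Of the 15 receptor partners and coregulators 14 were tested and 0 called by edgeR, with 1 lower at an unadjusted p under 0.05 and a median of -0.012. *RXRB* was the only one with a sign shared by the 4 lines and reached -0.17 ± 0.10 (edgeR, adjusted p = 0.448). Of the 10 response genes 7 were tested, 0 called and 1, *KLF9*, lower at an unadjusted p under 0.05, while *ATP2A2*, the calcium pump gene of muscle and heart, was higher in 4 of 4 lines by 0.12 ± 0.07 (edgeR, adjusted p = 0.480). *HR*, the hairless corepressor gene that T3 induces in brain, had 57.7 to 72.5 CPM in SKOV3, 16.0 to 31.5 CPM in HCC1954, 1.05 to 1.29 CPM in OVCAR8 and 0 counts in MDA-MB-231.

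**Figure D4:**
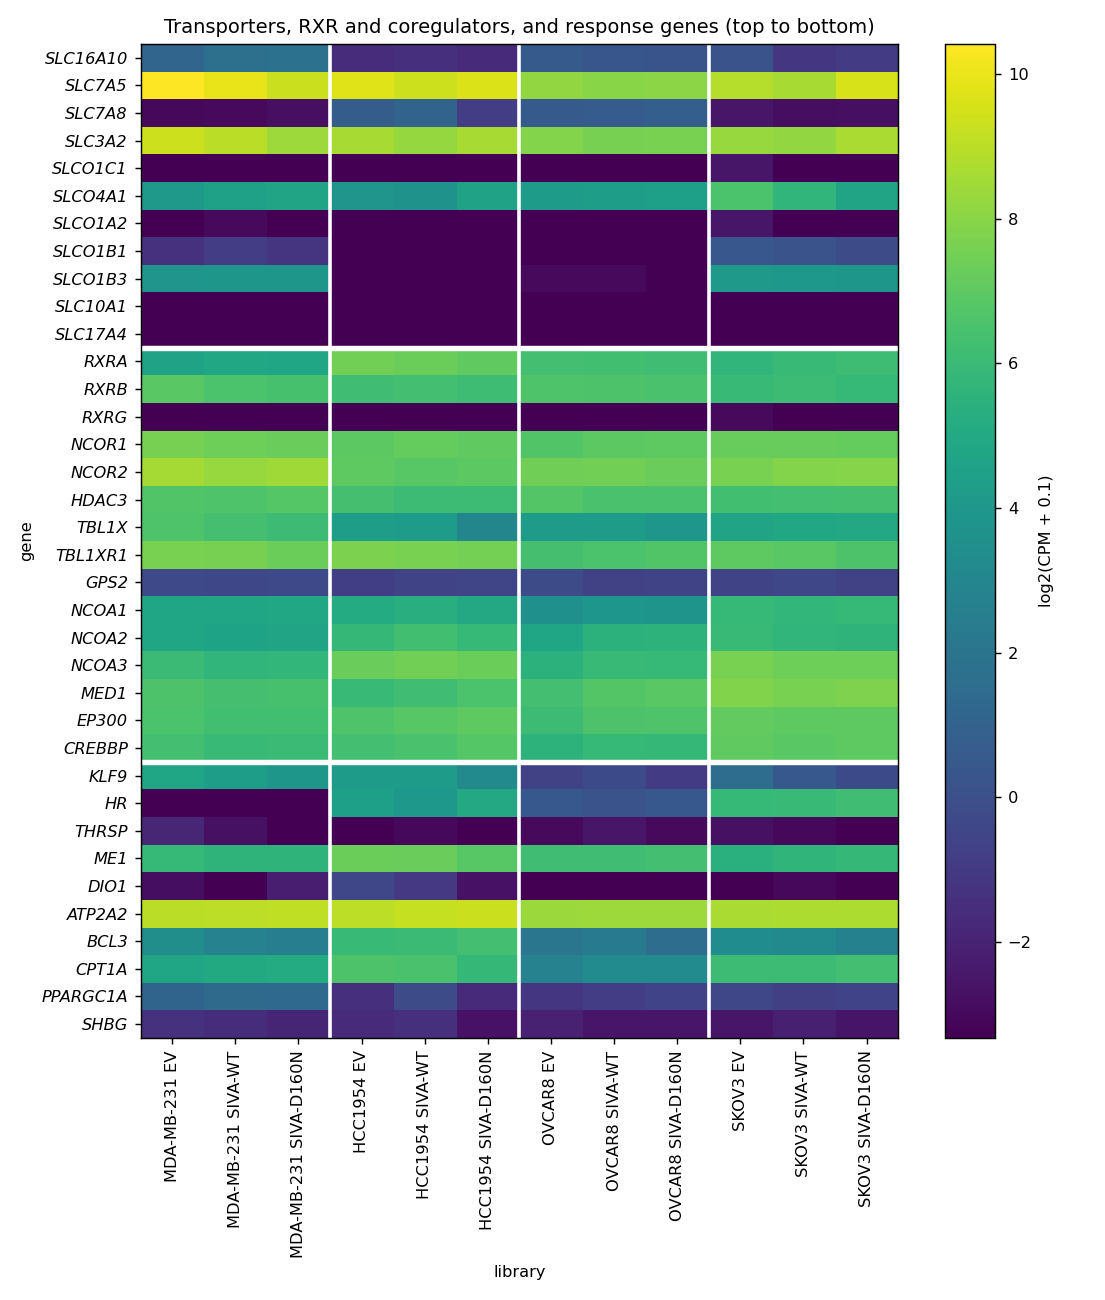
Log2(CPM + 0.1) of 11 of the 12 transporters, the retinoid X receptors with coregulators, and the response genes (top to bottom, in blocks divided by white lines) in the 12 libraries, grouped by line. For many genes the columns of a line look alike, and *HR*, *SLCO1B3* and *BCL3* differ between lines. Some genes also differ within a line, such as *KLF9* (2.91 CPM in EV and 0.763 CPM in *SIVA-D160N*) and *SLCO4A1* (25.9 to 90.8 CPM) in SKOV3.

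The 4 genes of DIO2 protein turnover (*WSB1*, *MARCHF6*, *USP20* and *USP33*) were all tested, and *USP20*, a deubiquitinase that stabilises the DIO2 protein, was lower in 4 of 4 lines by -0.21 ± 0.09 (edgeR, adjusted p = 0.318). Of the 6 genes of selenocysteine insertion, on which all deiodinases depend, 6 were tested and 0 passed an unadjusted p under 0.05 or were called by edgeR, and their median was 0.0034. Of 24 other selenoprotein genes 19 were tested and 0 called, with 2 higher and 1 lower at an unadjusted p under 0.05, a share near that of all genes. *SELENOI* (0.30 ± 0.09, adjusted p = 0.222 in edgeR) and *SELENOT* (0.23 ± 0.08, adjusted p = 0.245) were higher in 4 of 4 lines. Within HCC1954, *SELENOP* had 1327, 2605 and 234 counts in EV, *SIVA-WT* and *SIVA-D160N*, and *GPX2* had 3535, 2488 and 859. Their ratios of *SIVA-D160N* to EV there were 0.210 and 0.289, from 1 library each. All 9 cAMP-responsive genes were tested, with 0 called, 0 at an unadjusted p under 0.05 and a median of -0.16.

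Of the genes of thyroid hormone synthesis, *TSHR*, the thyrotropin receptor gene, reached at most 0.0822 CPM in any library, and *TG*, the thyroglobulin gene, at most 0.426 CPM. The thyroid and lung factor gene *NKX2-1* had 4.87 to 12.4 CPM in MDA-MB-231, HCC1954 and OVCAR8 and at most 0.0448 CPM in SKOV3, and the thyroid factor gene *FOXE1* had 1.82 to 2.66 CPM in the ovarian lines and 0 counts in the breast lines. Of the 11 synthesis genes 4 were tested and 0 called. *PAX8*, a factor of thyroid and Mullerian tissue, had 230 to 243 CPM in SKOV3 and 61.1 to 76.4 CPM in OVCAR8. Of the 6 hormone binding genes, 2 were tested and 0 called, and *TTR*, the thyroxine carrier of plasma, had 0 counts throughout.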

How the data were processed

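The authors made stranded mRNA libraries (TruSeq) and, per the submitters' processing notes, used FastQC, STAR 2.5.3a, edgeR and GRCh38. The annotation release and strand setting are not given in the sources used here. They deposited raw counts for 57187 genes, used for all tests. The deposited CPM table, a signal scaled by library size and TMM factors, was used only for its list of 34525 genes. All columns were matched to libraries by name (0 left over).

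All tests on counts used edgeR 4.0.16 in R 4.3.3 (quasi-likelihood test, TMM, filterByExpr by condition), with line and condition as terms over 12 libraries. A gene was called when its FDR was under 0.05 and its log2 fold change was 1.5 or more in size. The line is the shared source of 3 libraries and so the replicate block of the fit. Fold changes within lines are CPM ratios with exact binomial intervals (scipy 1.17.1), and log2 CPM used a prior count of 2. Alternatives were DESeq2 1.42.0, limma-voom (limma 3.58.1), other normalization, filters and thresholds, no block, and leaving out lines or conditions. The fit was tested on simulated data. Figures were drawn with matplotlib 3.10.9. Gene positions and promoter windows are RefSeq's (GRCh38.p14).

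The members and lists were chosen with earlier results of these data known. The genes named are the 8 genes, *SIVA1*, antisense or overlapping partners, *ERBB2*, up to 3 genes of each list with 1 sign in all 4 lines, and the 5 genes most like *DIO2* in each of 2 ways. Other genes of the lists, given by their levels alone, were chosen after their values were seen. No protein sequence is shown. A transporter gene and a synthesis gene of these lists were counted with them but are not reported here by name.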

Additional observations from a re-analysis of the deposited data

How the results depend on the processing

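Of the 5 genes other than *DIO2*, 0 were called in the 3 condition contrasts and in the tissue interaction under every alternative run, by DESeq2 and limma-voom too. Over all genes, 1 was called by edgeR in *SIVA-D160N* vs EV, against 12 by DESeq2, 27 by limma-voom, 172 with every gene kept, 161 with the genes of the deposited CPM table, 0 with no replicate block, 0 without MDA-MB-231 or without SKOV3 and 2 without HCC1954 or without OVCAR8. The 0 of *SIVA-WT* vs EV became 1 in DESeq2 and in limma-voom and 10 with either wider gene set, and the 0 of *SIVA-D160N* vs *SIVA-WT* became 3, 1, 59 (every gene) and 48 (CPM table). The 1 gene called in the tissue interaction became 12 in DESeq2, 0 in limma-voom, 101 with every gene kept, 74 with the CPM table and 0 without SKOV3. With no replicate block the log2 fold changes in *SIVA-D160N* vs EV were 1.02 for *THRB*, -0.95 for *KLF9* and 2.55 for *DIO2*, and 0 genes of the 5 were called. The number of differences between lines called, over the genes and the 6 pairs, was 19, of which *DIO2*, which had to differ, held 4. It came to 29 with the FDR alone, since the size threshold was dropped. It was 19 to 26 under the other settings, and 21 to 22 when a condition was left out.

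Of 198 log2 fold changes set beside the main fit, 183 were counted as unchanged. This meant the same direction and side of the threshold, or for *DIO2* a value within 1 SD of its ratios between lines. That SD is wide. *DIO2* in *SIVA-WT* vs EV was counted as unchanged although it fell from 1.92 to 1.48 without SKOV3, under the size threshold. Values under the FDR alone repeat the main fit and could not differ. The other 15 changed sign, all of *SLC16A10* or *RXRA*, whose values are near 0. The cause was not tested. In *SIVA-D160N* vs EV, *SLC16A10* was 0.045 in limma-voom and 0.15 with no replicate block, and *RXRA* was -0.013 and -0.16. In *SIVA-WT* vs EV with no replicate block, *SLC16A10* was 0.083 and *RXRA* -0.053. Leaving out 1 line at a time, *SLC16A10* ran from -0.61 (without MDA-MB-231) to 0.19 (without SKOV3) in *SIVA-D160N* vs EV, from -0.58 to 0.21 in *SIVA-WT* vs EV and from -0.025 to 0.090 in *SIVA-D160N* vs *SIVA-WT*. *RXRA* ran from -0.13 (without SKOV3) to 0.16 (without HCC1954), from -0.021 to 0.13 and from -0.12 to 0.037 in the same order.

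Depth limits *DIO2* in MDA-MB-231 and OVCAR8 and *DIO1* and *DIO3* in nearly all libraries. Using library totals without TMM, *DIO2* in HCC1954 *SIVA-D160N* was 162 CPM in place of 169.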
